A study of Mus musculus with 6 samples.

Results

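The genes described are 10 immediate early genes, namely Fos, Fosb, Jun, Junb, Jund, Egr1, Egr3, Nr4a1, Ier2 and Dusp1. They were chosen as a named list from the 14548 gene symbols that the 3 count tables of the series share. All 10 were listed in every table and all 10 passed the low-count filter of each of the 5 comparisons tested. The series profiled mouse spleen B cells by droplet single-cell RNA sequencing from the 5′ end of transcripts, in 6 libraries with 38651 cells. The 2 Day14 libraries held cells of wild type mice gated as B220+ CD95hi GL7hi IgD-, taken 14 days after a haptenated protein antigen in alum. The 2 Day7 libraries held cells of wild type mice gated as B220+ CD38- GL7hi, taken 7 days after the same kind of injection. A single KO chimaera library came from irradiated Ccl19Cre/+ Il4raf/f hosts, and a single control chimaera library from irradiated Il4ra+/+ hosts. Both kinds of host were rebuilt with wild type marrow and immunised for 14 days, and their cells passed the same gate as the Day14 cells. In the KO chimaera Cre follows the Ccl19 promoter, active in lymphoid stroma, so the host's stroma and not the donor B cells was the target of the Il4ra deletion. The labels used here give no count of animals per library and do not say whether the control hosts carried Cre, and p-values between libraries measure only the spread between these libraries.

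Immediate early genes are transcribed within minutes of a signal and need no new protein synthesis. In B cells, antigen receptor and CD40 signals act through ERK, calcium and NF-κB to switch them on, and germinal centre light zone cells, which take up antigen and meet T helper cells, are known to carry more of these transcripts than dividing dark zone cells. The same genes also respond to cell stress, and tissue dissociation and sorting can induce them. The proteins are the AP-1 subunits Fos, Fosb, Jun, Junb and Jund, which bind DNA as dimers, the zinc finger factors Egr1 and Egr3, the orphan nuclear receptor Nr4a1 (Nur77), the nuclear protein Ier2, and Dusp1, a phosphatase that switches off MAP kinases.

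The libraries differed in depth. Day14 libraries had 9109 and 10648 cells with median UMI counts of 3399 and 3178.5 per cell, Day7 libraries had 1012 and 2530 cells with medians of 17277.5 and 18233.5, the KO chimaera had 7314 cells with a median of 7185.5, and the control chimaera had 8038 cells with a median of 6676. The median share of mitochondrial counts per cell was 7.69% and 8.11% in Day14 libraries, against 2.67% and 2.63% in Day7 libraries, and was 2.87% in the KO chimaera and 2.996% in the control chimaera. The highest share in any cell was about 20% in the Day14 libraries, about 5% in the Day7 libraries and about 10% in the chimaeras. Markers of B cells and of germinal centre cells were present in every library, with none of the 6 and 7 listed genes at 0. Pairs of libraries shared between 1 and 135 cell barcodes.

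Levels below are CPM, the summed UMIs of a gene scaled to a common total of all UMIs in the same cells. They are not scaled by transcript length and are compared between samples, not between genes. Fos, the AP-1 partner that cannot pair with itself, stood at 81.6 and 82.9 CPM in Day14 libraries, 6.93 and 6.98 CPM in Day7 libraries, 7.64 CPM in the KO chimaera and 9.31 CPM in the control chimaera. Both Day14 libraries lay far above the other 4, whose counting intervals partly overlapped. Fosb, its close relative, had 34.4 and 31.2 CPM in Day14 libraries, 0.885 and 0.481 CPM in Day7 libraries, 0.838 CPM in the KO chimaera and 1.13 CPM in the control chimaera. Its Day7 values rested on 18 and 26 UMIs, and again no library from outside the Day14 pair came near that pair. Jun, which pairs with Fos proteins or with itself, had 56.3 and 70.0 CPM in Day14 libraries, against 11.4 and 11.1 CPM in Day7 libraries, with 10.2 CPM in the KO chimaera and 13.6 CPM in the control chimaera.

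Junb and Jund, the other Jun proteins, behaved differently from each other. Junb had 170.2 and 162.6 CPM in Day14 libraries and 152.8 and 176.6 CPM in Day7 libraries, so the groups overlapped, while the KO chimaera at 99.3 CPM and the control chimaera at 129.5 CPM were lower. Jund had 435.2 and 418.5 CPM in Day14 libraries and 154.9 and 141.2 CPM in Day7 libraries, with 193.0 CPM in the KO chimaera and 142.8 CPM in the control chimaera. Here the KO chimaera came second to the Day14 pair, and the control chimaera lay between the Day7 libraries.

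Among the other members, Egr1 overlapped between the days, with 47.4 and 46.7 CPM in Day14 libraries and 34.6 and 48.3 CPM in Day7 libraries. Its chimaera values were 24.4 CPM in the KO library and 29.9 CPM in the control library. Egr3, a target of calcium and NFAT signalling in lymphocytes, had 9.85 and 7.53 CPM in Day14 libraries, 0.295 and 0.315 CPM in Day7 libraries from 6 and 17 UMIs, 1.74 CPM in the KO chimaera and 3.34 CPM in the control chimaera. Its order was Day14, control chimaera, KO chimaera and Day7, and only the Day7 libraries were within counting error of each other. Nr4a1, widely used as a reporter of antigen receptor signalling, had 6.29 and 7.36 CPM in Day14 libraries and 3.20 and 1.35 CPM in Day7 libraries, with 2.80 CPM in the KO chimaera and 5.19 CPM in the control chimaera. Ier2 had the narrowest spread of these, with 38.5 and 33.6 CPM in Day14 libraries, 28.7 and 24.5 CPM in Day7 libraries, 26.3 CPM in the KO chimaera and 36.5 CPM in the control chimaera. Dusp1 had 25.8 and 26.4 CPM in Day14 libraries, 13.3 and 12.2 CPM in Day7 libraries, 7.89 CPM in the KO chimaera and 7.56 CPM in the control chimaera.

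**Figure D1:**
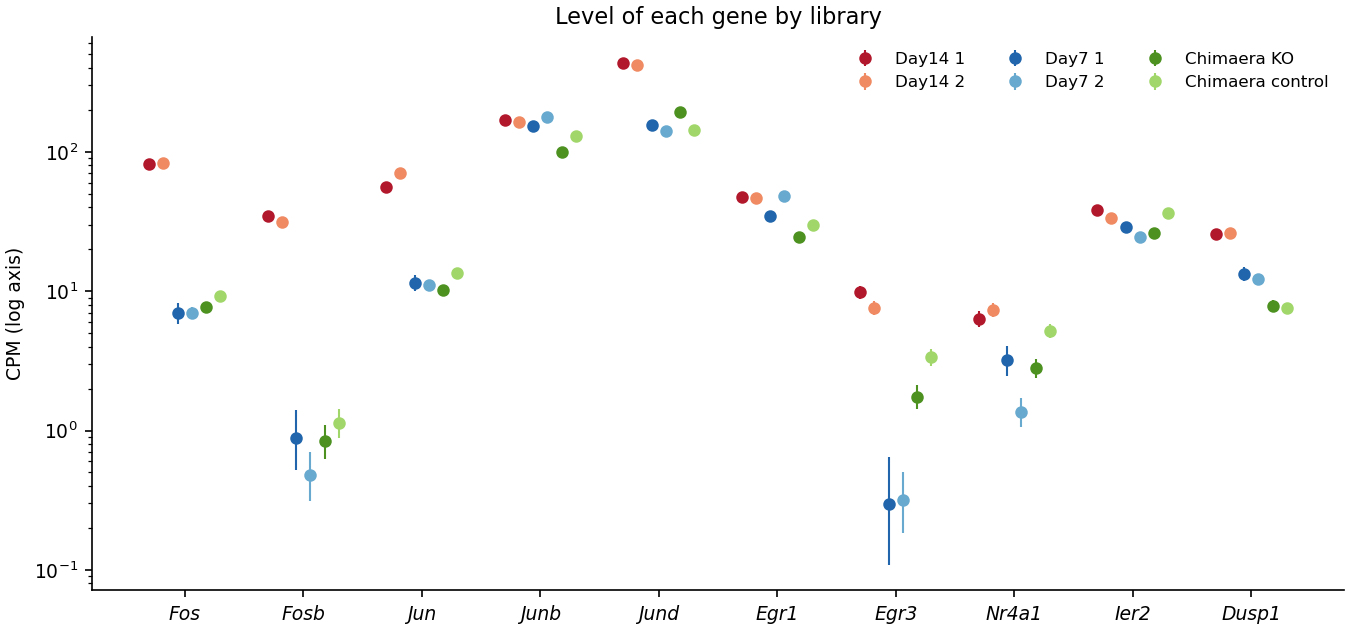
Level of each immediate early gene in each of the 6 libraries, in CPM on a log axis, with 95% intervals that cover counting error only. Fos, Fosb and Jun stand apart in both Day14 libraries, while Junb, Egr1 and Ier2 lie close together across libraries.

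Set against day 7, day 14 had 7 of the 10 genes higher and 0 lower at an adjusted p under 0.05 in edgeR's quasi-likelihood test, where 34.9% of all tested genes were called higher and 33.0% lower. Fosb rose by 5.58 (SE 0.20, adjusted p = 2.3e-05) on the log2 scale, Egr3 by 4.62 (SE 0.26, adjusted p = 4.0e-05), Fos by 3.38 (SE 0.07, adjusted p = 1.8e-05) and Jun by 2.31 (SE 0.12, adjusted p = 3.1e-05). Smaller rises were those of Nr4a1 at 1.52 (adjusted p = 0.0108), Jund at 1.35 (adjusted p = 2.9e-05) and Dusp1 at 0.87 (adjusted p = 0.000162). The other 3 members did not pass, with log2 differences of 0.27 for Ier2 (adjusted p = 0.0586), -0.16 for Junb (adjusted p = 0.169) and -0.01 for Egr1 (adjusted p = 0.961). Without the first Day7 library Junb and Egr1 were called lower, with an Egr1 difference of -0.29, and without the second Egr1 was called higher, at 0.29. Day cannot be told apart from the gate, the count table, the depth and the limit on mitochondrial share, all of which changed with it.

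The chimaeras shared the day and the gate of the Day14 libraries, and for several genes their levels were near those of day 7. The Day14 mean was 10.8 times the KO chimaera and 8.83 times the control chimaera for Fos, 39.2 and 29.2 times for Fosb, and 6.19 and 4.65 times for Jun. For Ier2 the same ratios were 1.37 and 0.989, and for Nr4a1 they were 2.44 and 1.31. These ratios run across separately made tables and were not tested. Summed T cell markers were 120 and 130 CPM in Day14 libraries, 103 and 119 CPM in Day7 libraries, 60.3 CPM in the KO chimaera and 82.1 CPM in the control chimaera, with Cd3e or Cd8a at 0 in some libraries. Summed myeloid markers lay between 15.0 and 33.4 CPM in the 6 libraries, and summed stromal markers between 14.4 and 22.7 CPM with Pdpn at 0 in the Day14 and Day7 libraries. The stromal sums of the chimaeras covered 5 of the 8 listed genes, and the T cell sums of Day7 covered 7 of 8, so these sums are not of like gene sets. Erythroid markers summed to 150 and 146 CPM in Day14 libraries and to 643 and 215 CPM in Day7 libraries, with 59.7 CPM in the KO chimaera and 73.2 CPM in the control chimaera. The part of these cells in the gene differences was not tested.

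Upstream sequence is shown for the genes whose levels moved together below, to let their promoters be read side by side: Fos, Fosb, Jun and Dusp1, which followed the mitochondrial share, and Junb and Nr4a1, which followed the light zone. The groups are not exclusive. Jun was also higher in light zone cells of 6 of 6 libraries. Junb was also higher at a high mitochondrial share, by 1.89 and 1.99 times in the Day14 libraries. The sequences are the 250 bases before the start listed by RefSeq on GRCm38.p6, 5′ to 3′ on the gene's strand. They lie at chr12:85473640-85473889 (plus strand) for Fos, chr7:19310046-19310295 (minus strand) for Fosb, chr4:95052223-95052472 (minus strand) for Jun, chr17:26508473-26508722 (minus strand) for Dusp1, chr8:84978749-84978998 (minus strand) for Junb and chr15:101266596-101266845 (plus strand) for Nr4a1. Capitals mark TGACG on either strand, the core of the cyclic AMP response element bound by CREB and ATF proteins, TGACNTCA, the full element or its Jun-type variant, and a MEF2 site.
Fos: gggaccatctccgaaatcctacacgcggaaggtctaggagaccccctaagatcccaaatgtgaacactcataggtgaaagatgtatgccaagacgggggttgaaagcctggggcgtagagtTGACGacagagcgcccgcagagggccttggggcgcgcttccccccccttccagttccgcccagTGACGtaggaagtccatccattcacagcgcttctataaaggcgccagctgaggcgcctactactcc
Fosb: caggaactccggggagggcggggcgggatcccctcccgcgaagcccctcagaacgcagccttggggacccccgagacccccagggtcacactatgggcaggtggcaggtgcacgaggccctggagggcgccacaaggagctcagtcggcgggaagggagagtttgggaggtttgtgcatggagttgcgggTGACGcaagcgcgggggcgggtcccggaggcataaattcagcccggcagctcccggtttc
Jun: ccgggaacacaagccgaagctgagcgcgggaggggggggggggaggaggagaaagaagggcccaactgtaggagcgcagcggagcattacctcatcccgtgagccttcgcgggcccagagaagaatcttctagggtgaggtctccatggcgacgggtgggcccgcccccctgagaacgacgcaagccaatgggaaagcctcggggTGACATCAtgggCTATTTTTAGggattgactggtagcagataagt
Dusp1: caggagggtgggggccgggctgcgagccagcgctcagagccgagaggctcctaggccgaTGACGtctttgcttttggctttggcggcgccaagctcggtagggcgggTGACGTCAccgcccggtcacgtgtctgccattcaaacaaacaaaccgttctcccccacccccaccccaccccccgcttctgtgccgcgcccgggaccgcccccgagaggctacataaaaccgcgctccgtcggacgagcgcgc
Junb: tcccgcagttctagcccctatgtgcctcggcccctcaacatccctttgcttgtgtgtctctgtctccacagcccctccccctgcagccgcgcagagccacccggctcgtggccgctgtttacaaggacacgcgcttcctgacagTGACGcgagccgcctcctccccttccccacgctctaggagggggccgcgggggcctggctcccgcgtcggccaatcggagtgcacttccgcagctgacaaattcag
Nr4a1: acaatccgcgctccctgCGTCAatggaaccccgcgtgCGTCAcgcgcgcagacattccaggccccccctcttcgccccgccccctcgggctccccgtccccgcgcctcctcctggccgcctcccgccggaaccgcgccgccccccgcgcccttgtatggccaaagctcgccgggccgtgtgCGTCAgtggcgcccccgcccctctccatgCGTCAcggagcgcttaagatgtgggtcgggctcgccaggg
The RefSeq table held 7 of the 10 members, with Jund as the seventh and Egr1, Egr3 and Ier2 not in it. TGACG was in 5 of the 7 windows and in 17.8% of all 32851 promoter windows of the same length. Fos held it at positions -129 and -66 from the start, Fosb at -60, Junb at -106 and Nr4a1 at -233, -213, -69 and -40. TGACNTCA, which can contain TGACG, was in Jun at -45 as TGACATCA and in Dusp1 at -143 as TGACGTCA, and in 7.49% of all windows. Jun alone of the 7 held a MEF2 site, at -33, which 0.508% of all windows held. GCGNGGGCG, the site read by Egr proteins, was in the Fosb and Nr4a1 windows and in 4.70% of all windows, and is not marked in capitals. TGANTCA, the AP-1 site, and the CArG box of serum response factor were in 0 of the 7, against 6.75% and 1.47% of all windows, both strands being searched for each motif. A match describes letters only, and no match says only that these letters are not in this window.

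Within both Day14 libraries, Fos, Fosb, Jun and Dusp1 were several times higher in cells with a larger mitochondrial share. Cells of each Day14 library were split at mitochondrial shares of 5% and 10%, giving 2072, 3911 and 3126 cells in the first library and 2273, 4399 and 3976 in the second. Fos had 35.4, 68.6 and 178.1 CPM in the low, middle and high bands of the first library and 28.5, 63.6 and 187.6 CPM in those of the second. The top band was thus 5.04 and 6.58 times the bottom one, and neither library broke the order. Jun had 27.8, 42.1 and 129.6 CPM in the first library and 25.2, 51.2 and 162.1 CPM in the second, ratios of 4.66 and 6.42. Fosb had ratios of 4.35 and 4.82 and Dusp1 of 3.16 and 3.89.

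The other members followed the mitochondrial share less or not at all. Junb had ratios of 1.89 and 1.99 between the top and bottom bands, Egr1 of 1.93 and 2.31, and Jund of 1.54 and 1.56. Ier2, at 1.11 and 1.12, was nearly level, and Nr4a1 went in opposite directions in the libraries, at 1.49 and 0.940. Egr3 ran the other way in both, with 13.0, 9.09 and 6.98 CPM in the first library and 10.3, 6.56 and 5.99 CPM in the second, a top band at 0.538 and 0.581 times the bottom one. Depth moved with the bands, since median UMI counts were 5193, 3917 and 2008 per cell in the first library and 4918, 3799 and 1935 in the second. Among cells with at least 4000 UMIs, Fos still had 31.5, 62.2 and 117.5 CPM in the first library and 25.0, 56.4 and 150.4 CPM in the second. The order also held inside the light zone-like cluster 1 of the Day14 table, where Fos had 25.1, 50.7 and 140.7 CPM in the first library and 23.0, 55.9 and 135.3 CPM in the second. In the chimaeras, whose cells stopped at 10%, Fos had 7.28 CPM under 5% and 12.9 CPM above it in the KO library, and 8.90 and 14.0 CPM in the control library. Jun had 10.1 and 11.6 CPM in the KO library, with overlapping intervals, and 13.0 and 19.8 CPM in the control library. Egr3 was not lower in the higher band there, with 1.70 and 2.32 CPM in the KO library and 3.34 and 3.39 CPM in the control library, from 9 and 17 UMIs in that band.

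**Figure D2:**
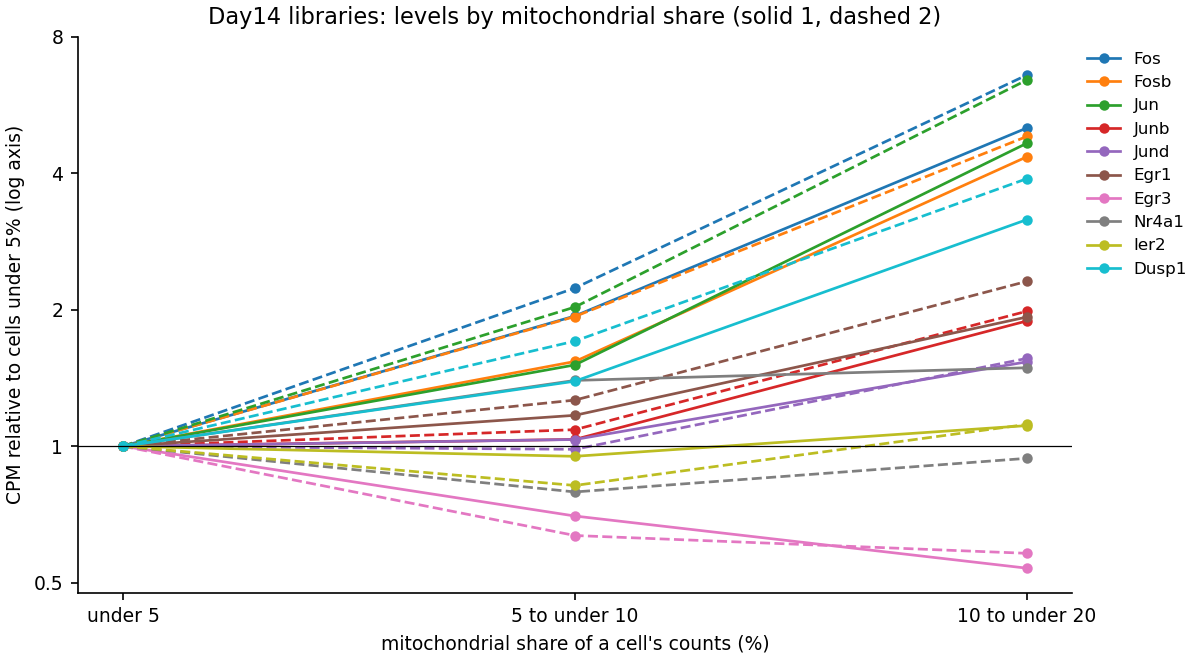
Level of each gene in Day14 cells under 5%, from 5% to 10% and from 10% to 20% mitochondrial counts, as CPM relative to the cells under 5% on a log axis, with solid lines for the first Day14 library and dashed lines for the second. Fos, Fosb, Jun and Dusp1 stand higher in each further band of both libraries, Ier2 is nearly level and Egr3 stands lower.

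The difference between the days was therefore also fitted on cells under 5% mitochondrial counts alone, an alternative chosen after seeing the data. Fos remained higher at day 14 by 2.11 on the log2 scale, Fosb by 4.54, Jun by 1.16, Jund by 1.28, Egr3 by 5.13 and Nr4a1 by 1.55, all called by edgeR's quasi-likelihood test. In that fit 3011 of 10954 tested genes were called higher and 2999 lower. Dusp1 was no longer called, with a log2 difference of 0.10 (edgeR adjusted p = 0.525), while Ier2 was called higher by 0.41 and Junb lower, at -0.38. Fos and Jun were thus still called under this limit, with log2 differences smaller by more than 1. The limit caps the mitochondrial share without matching it, the median UMI counts of the Day14 cells kept were 5193 and 4918, far below those of the Day7 cells, and the part of handling in either value was not tested.

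Light zone cells carried more of 7 of the 10 genes than dark zone cells. The zone is the authors' deposited call, made on the same cells by a method not given in the sources used here, so whether any member entered that call cannot be told. Of 8 light zone markers 8 were higher in the cells called light zone, and of 7 dark zone markers 6 were lower. Whether these markers entered the call cannot be told either, so the counts are no independent check of it. Egr3 showed the widest gap: in light zone against dark zone cells it had 22.2 against 3.79 CPM and 16.9 against 3.25 CPM in the Day14 libraries, 0.677 against 0.0772 CPM and 0.575 against 0.172 CPM in the Day7 libraries, 3.80 against 0.723 CPM in the KO chimaera and 7.52 against 1.02 CPM in the control chimaera. The light zone value was higher in 6 of 6 libraries, although the first Day7 pair rests on 5 and 1 UMIs. Nr4a1 had 11.2 against 3.88 CPM and 12.3 against 5.10 CPM in the Day14 libraries, 7.44 against 0.772 CPM and 2.35 against 0.803 CPM in the Day7 libraries, 5.52 against 1.58 CPM in the KO chimaera and 9.98 against 2.56 CPM in the control chimaera. Ier2 had 64.0 against 26.1 CPM and 53.2 against 24.6 CPM in the Day14 libraries, 42.8 against 20.6 CPM and 37.9 against 17.1 CPM in the Day7 libraries, 43.9 against 18.0 CPM in the KO chimaera and 58.4 against 24.4 CPM in the control chimaera. For Ier2 the light zone cells of every library lay above the dark zone cells of every library.

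Egr1 had 64.2 against 39.4 CPM and 60.4 against 40.6 CPM in light zone against dark zone cells of the Day14 libraries, 58.9 against 20.7 CPM and 72.8 against 34.9 CPM in the Day7 libraries, 33.9 against 20.6 CPM in the KO chimaera and 44.4 against 22.1 CPM in the control chimaera. Junb had 236 against 138 CPM and 219 against 136 CPM in the Day14 libraries, 225 against 112 CPM and 261 against 130 CPM in the Day7 libraries, 136 against 82.2 CPM in the KO chimaera and 177 against 102 CPM in the control chimaera. Both genes were higher in the light zone in 6 of 6 libraries. Fos had no such order, with 77.3 against 83.7 CPM and 75.8 against 86.1 CPM in the Day14 libraries, 6.23 against 7.34 CPM and 9.67 against 5.51 CPM in the Day7 libraries, 6.82 against 8.29 CPM in the KO chimaera and 9.98 against 9.18 CPM in the control chimaera. Only 2 of 6 libraries had more Fos in the light zone, against 4 of 6 for Fosb and 1 of 6 for Dusp1.

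**Figure D3:**
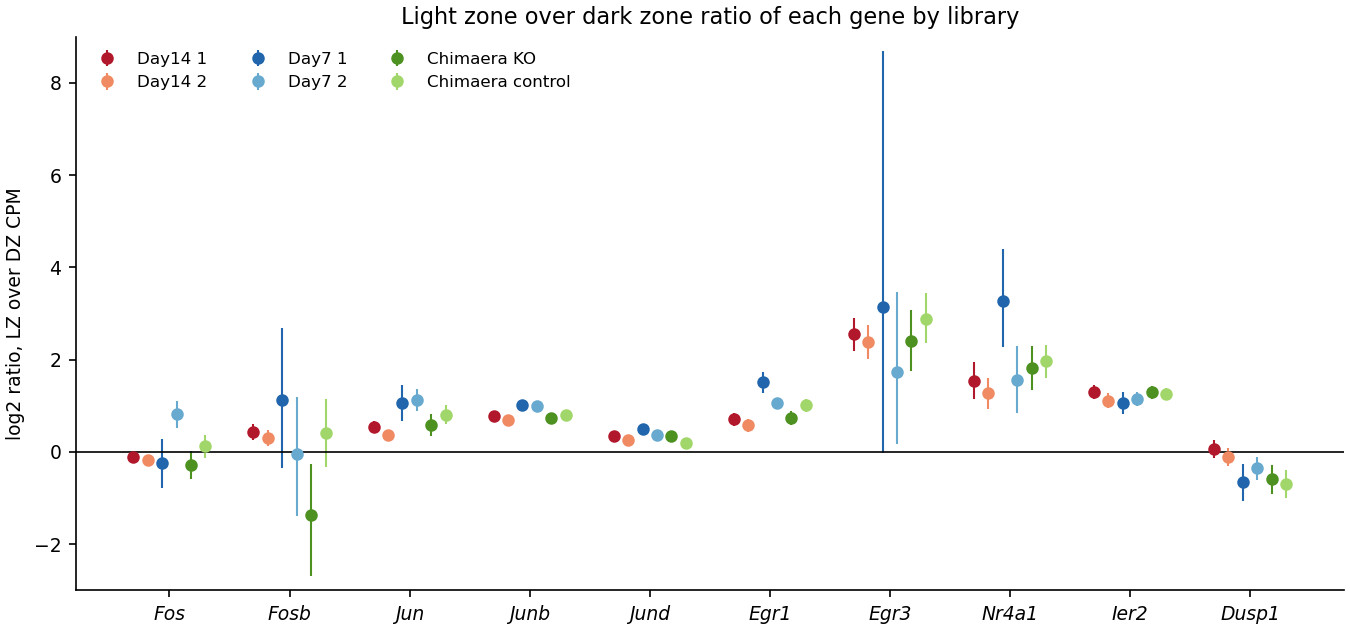
Log2 ratio of light zone (LZ) over dark zone (DZ) CPM of each gene in each library, with 95% intervals for counting error only, and a line at no difference. Egr3, Nr4a1, Ier2, Egr1, Junb, Jun and Jund lie above the line in all 6 libraries, while Fos, Fosb and Dusp1 spread around or below it.

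In edgeR's quasi-likelihood test over the 6 libraries with library as a term, 7 members were higher in light zone cells and 1 lower, where 30.1% of all tested genes were called higher and 27.5% lower. The log2 differences were 2.47 for Egr3 (SE 0.12, adjusted p = 7.0e-09), 1.69 for Nr4a1 (SE 0.16, adjusted p = 2.4e-06), 1.17 for Ier2 (SE 0.05, adjusted p = 3.1e-09), 0.86 for Egr1 (SE 0.09, adjusted p = 6.0e-06), 0.79 for Junb (SE 0.05, adjusted p = 3.3e-08), 0.62 for Jun (adjusted p = 0.000109) and 0.29 for Jund (adjusted p = 2.2e-05). Dusp1 was lower, at -0.37 (SE 0.08, adjusted p = 0.00228). Fos at -0.06 (adjusted p = 0.659) and Fosb at 0.22 (adjusted p = 0.128) did not pass. The same 7 were higher in cells under 5% mitochondrial counts, where the Egr1 difference was 1.11 and that of Egr3 2.80. In that fit 3303 of 11430 tested genes were called higher. Dusp1 was not called within G1, S or G2M cells alone or in cells thinned to 1000 UMIs, and Jund was not called within S or G2M cells alone. Fos was called lower in light zone cells without the second Day7 library, at -0.20, in thinned cells, at -0.21, and without plasma-like and memory precursor-like clusters, at -0.26. Median mitochondrial share did not separate the zones in the Day14 libraries, at 7.67% in light zone against 7.69% in dark zone cells of the first and 8.26% against 8.0% in the second. Summed T cell and myeloid markers were higher in light zone cells of every library, for instance 166 against 97.6 CPM and 28.3 against 19.3 CPM in the first Day14 library. The widest myeloid gap was 75.5 against 9.34 CPM in the first Day7 library. Erythroid markers ran the other way in the Day7 libraries, at 58.6 against 977 CPM and 62.4 against 299 CPM. They were also lower in light zone cells of the KO chimaera, and higher in those of the Day14 and control chimaera libraries. Naive follicular B cell markers, a list that shares Fcer2a with the light zone markers, were also higher in light zone cells of every library, at 425 against 204 CPM in the first Day14 library and 439 against 214 CPM in the KO chimaera. So were plasma cell markers, at 998 against 752 CPM in the first Day14 library and 5577 against 2551 CPM in the first Day7 library. The part of these cells in the zone differences was not tested beyond the fit without plasma-like and memory precursor-like clusters. There 7 members were higher and 2 lower, where 3218 of 11391 tested genes were called higher and 3146 lower.

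The log2 ratio of light zone over dark zone was lower at day 14 than at day 7 for 4 genes, of which Jun, Egr1 and Junb had a light zone excess in every library and Fos did not. In edgeR's test of the interaction of day with zone, the log2 ratio of light zone over dark zone was lower at day 14 by -0.70 for Fos (adjusted p = 0.0470), -0.70 for Jun (adjusted p = 0.00307), -0.60 for Egr1 (adjusted p = 0.00372) and -0.30 for Junb (adjusted p = 0.0209), so that 0 members were higher and 4 lower, where 1.18% of all tested genes were called higher and 1.11% lower. The Fos call was lost with size factors in place of TMM, at -0.67 (edgeR adjusted p = 0.0529), and among the libraries it compares only the second Day7 library, at 0.81, had more Fos in the light zone. Mitochondrial share moved with this result: among Day14 cells under 5%, from 5% to 10% and above 10%, the log2 light zone over dark zone ratio of Egr1 was 1.39, 0.62 and 0.34 in the first library and 1.43, 0.51 and 0.22 in the second. That of Junb was 1.06, 0.78 and 0.60 in the first and 1.04, 0.72 and 0.46 in the second. Restricted to cells under 5%, 0 of the 10 genes passed in either direction, where 71 of 10484 tested genes were called higher and 43 lower. The interaction values of that fit were -0.22 for Fos, -0.16 for Jun, 0.04 for Junb and 0.19 for Egr1. In cells thinned to 1000 UMIs only Junb was still lower, where 16 of 9564 tested genes were called higher and 40 lower. The ratios of Egr3, at 3.16, 2.29 and 1.89 in the first library, and of Ier2, at 1.60, 1.32 and 0.88, were also lower in the higher bands.

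Cell cycle phase, also a deposited call, split the genes in another way. Pooled over zones, S phase cells had 7 members lower than G1 cells and 1 higher in edgeR's quasi-likelihood test, where 34.2% of all tested genes were called lower and 29.1% higher. G2M cells also had 7 members lower than G1 cells and 1 higher, where 31.6% of genes were called lower and 28.6% higher. Dusp1 was the member that rose, by 0.55 in S and 0.51 in G2M on the log2 scale. In thinned cells it stood at 0.37 in S (edgeR adjusted p = 0.0781) and 0.38 in G2M (edgeR adjusted p = 0.0652), no longer called. Egr3 fell most, with a log2 difference of -0.99 in S and -1.73 in G2M, followed in G2M by Nr4a1 at -1.04 and Ier2 at -0.77. Fos did not pass in either phase, at -0.04 in S and 0.18 in G2M, but was called higher in G2M in cells thinned to 1000 UMIs, at 0.40 (edgeR adjusted p = 0.000378), and without the second Day7 library, at 0.29 (edgeR adjusted p = 0.00605). Jun in G2M, at -0.37 with all counts, was not called in thinned cells, at -0.10 (edgeR adjusted p = 0.446). In S phase Egr1, at -0.24, lost its call in thinned cells and without the first Day7, the second Day7 or the control chimaera library, and Fosb, at -0.41, lost it in thinned cells and without either Day14 library.

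Most of that pattern did not remain within a zone. Phase and zone moved together, since between 0.33% and 2.84% of the cells of mitotic-like clusters were called light zone. With zone as a term, 1 member was lower and 1 higher in S phase, where 3560 of 10679 tested genes were called lower and 2946 higher. In G2M the same fit had 1 member lower and 3 higher, where 2703 of 10679 genes were called lower and 2389 higher. Jund was the lower member in both phases. In dark zone cells alone, an alternative chosen after seeing the data, 6 members were higher in G2M than in G1 and 1 lower. Of 10711 genes tested there, 2249 were called higher and 2387 lower. The 6 higher members were Egr1 at 0.83 (edgeR adjusted p = 5.0e-06), Fosb at 0.41 (adjusted p = 0.030), Dusp1 at 0.34 (adjusted p = 0.036), Ier2 at 0.34 (adjusted p = 0.0095), Fos at 0.32 (adjusted p = 0.0048) and Junb at 0.19 (adjusted p = 0.027). Egr1 in dark zone cells had 19.7, 40.9 and 44.6 CPM in G1, S and G2M of the first Day14 library and 21.5, 38.4 and 47.5 CPM in those of the second. It had 13.6, 17.7 and 24.6 CPM in the first Day7 library and 20.3, 30.6 and 40.1 CPM in the second. The KO chimaera had 17.8, 23.9 and 18.8 CPM and the control chimaera 18.7, 23.1 and 22.2 CPM. G1 cells were the lowest of the phases in all 6 libraries, with a narrow gap in the chimaeras.

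Light zone cells in G2M were few, from 4 to 102 per library, and Junb was their 1 member called higher than in light zone G1 cells, by 0.83 (edgeR adjusted p = 5.6e-08). Of 10315 genes tested in that fit, 1690 were called higher and 2032 lower. Junb in light zone cells had 241, 207 and 387 CPM in G1, S and G2M of the first Day14 library and 222, 186 and 456 CPM in those of the second. It had 130, 143 and 200 CPM in the KO chimaera and 171, 182 and 293 CPM in the control chimaera, so G2M was highest in each of these 4 libraries. Jund was lower in G2M than in G1 within light zone cells, at -0.37, and within dark zone cells, at -0.31.

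**Figure D4:**
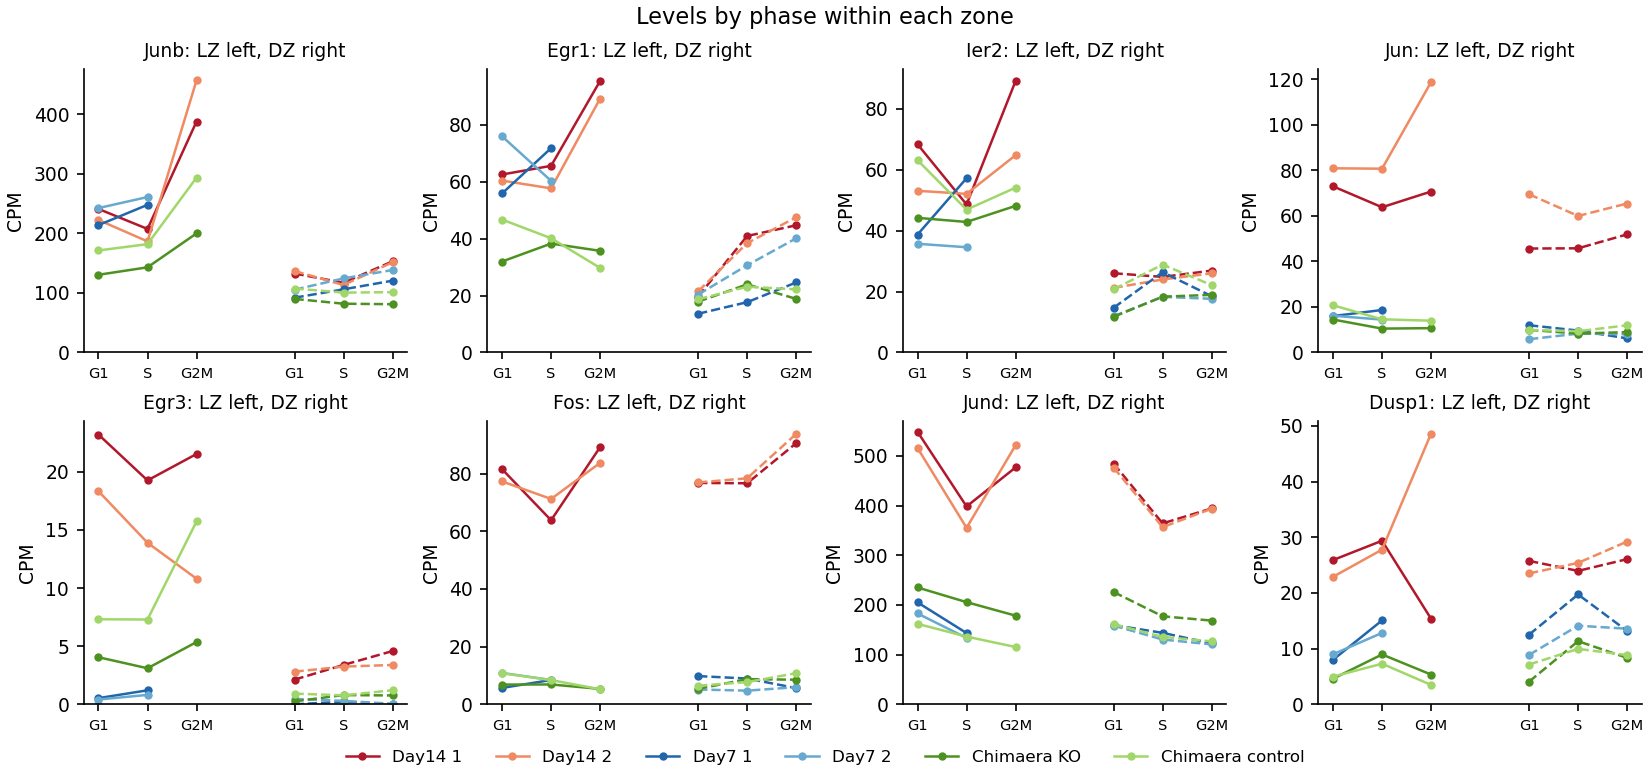
Level of 8 of the genes, in CPM, in G1, S and G2M cells of the light zone (LZ, solid lines) and the dark zone (DZ, dashed lines), with a line for each library. Points with under 50 cells are left out. Egr1 in dark zone cells is lowest in G1 in all 6 libraries, and Junb in light zone cells is highest in G2M in the Day14 libraries.

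Across the authors' clusters the genes formed separate patterns. These levels are a description with no test, because the clusters were drawn on the same cells. Cluster names with "-like" rest on listed markers. Among the clusters compared, Egr3 and Nr4a1 were highest in MYC-high-like cells of the Day14 and Day7 tables and in light zone-like cells of the chimaeras. In the MYC-high-like cluster 6 of the chimaeras Egr3 had 4.65 CPM in the control library. In the KO library it had 1.60 CPM there, below 2.82 CPM in the unnamed cluster 4. Egr3 had 30.6 and 21.4 CPM in the MYC-high-like cluster 5 of the Day14 libraries, 16.2 and 15.99 CPM in their light zone-like cluster 1, and 1.51 and 2.15 CPM in their mitotic-like cluster 4. In the chimaeras Egr3 was highest in the light zone-like cluster 0, at 7.33 CPM in the KO library and 9.85 CPM in the control library, and Nr4a1 had 9.56 CPM and 17.8 CPM there. Egr1 in that cluster had 43.2 CPM in the KO library and 64.3 CPM in the control library. Junb was highest in cluster 3 of the Day14 table, described below, and in MYC-high-like cells of the other tables, at 307 and 254 CPM in the Day7 libraries, 164 CPM in the KO chimaera and 205 CPM in the control chimaera.

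Fos and Jun were highest elsewhere. The plasma-like cluster 9 of the Day14 table, of 72 and 71 cells, had 236 and 233 CPM of Fos, while the MYC-high-like cluster 5 had 43.0 and 42.7 CPM. Cluster 8, also plasma-like but with a median of 2245 UMIs and a mitochondrial share of 12.9%, was not high for Fos, with 72.8 and 60.6 CPM. Plasma-like cells were also highest for Fos in Day7, at 45.3 and 51.9 CPM in 49 and 101 cells, and in the chimaeras, at 30.9 CPM in the KO library and 41.9 CPM in the control library. Egr3 was at 2.57 and 0 CPM in the Day14 plasma-like cluster 9 and at 0 in that of both chimaeras. Ier2 peaked in the memory precursor-like cluster 6 of the Day14 libraries, at 147 and 150 CPM, and its memory precursor-like level in the chimaeras was 36.8 CPM in the KO library and 65.4 CPM in the control library.

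Cluster 3 of the Day14 table stood apart and met no marker-based name. It held 957 and 1146 cells, 10.5% and 10.8% of the libraries, with median UMI counts of 1294 and 1162 and median mitochondrial shares of 12.3% and 13.5%. Its 10 leading genes were Jun, Lars2, Gxylt2, Dnajb9, AC061963.1, Rhob, Phlda1, Ppp1r15a, AL591952.3 and Carns1. Fos had 180 and 190 CPM there, Fosb 81.1 and 68.2 CPM, Jun 176 and 233 CPM, Junb 289 and 296 CPM, Jund 655 and 721 CPM and Dusp1 57.3 and 69.8 CPM. Egr3, at 6.81 and 6.20 CPM, was below its level in the whole libraries. Without this cluster the Day14 libraries still had 76.4 and 77.4 CPM of Fos and 50.01 and 61.7 CPM of Jun, and the same 7 members were called higher than at day 7. Of 11930 genes tested in that fit, 4112 were called higher and 3902 lower.

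**Figure D5:**
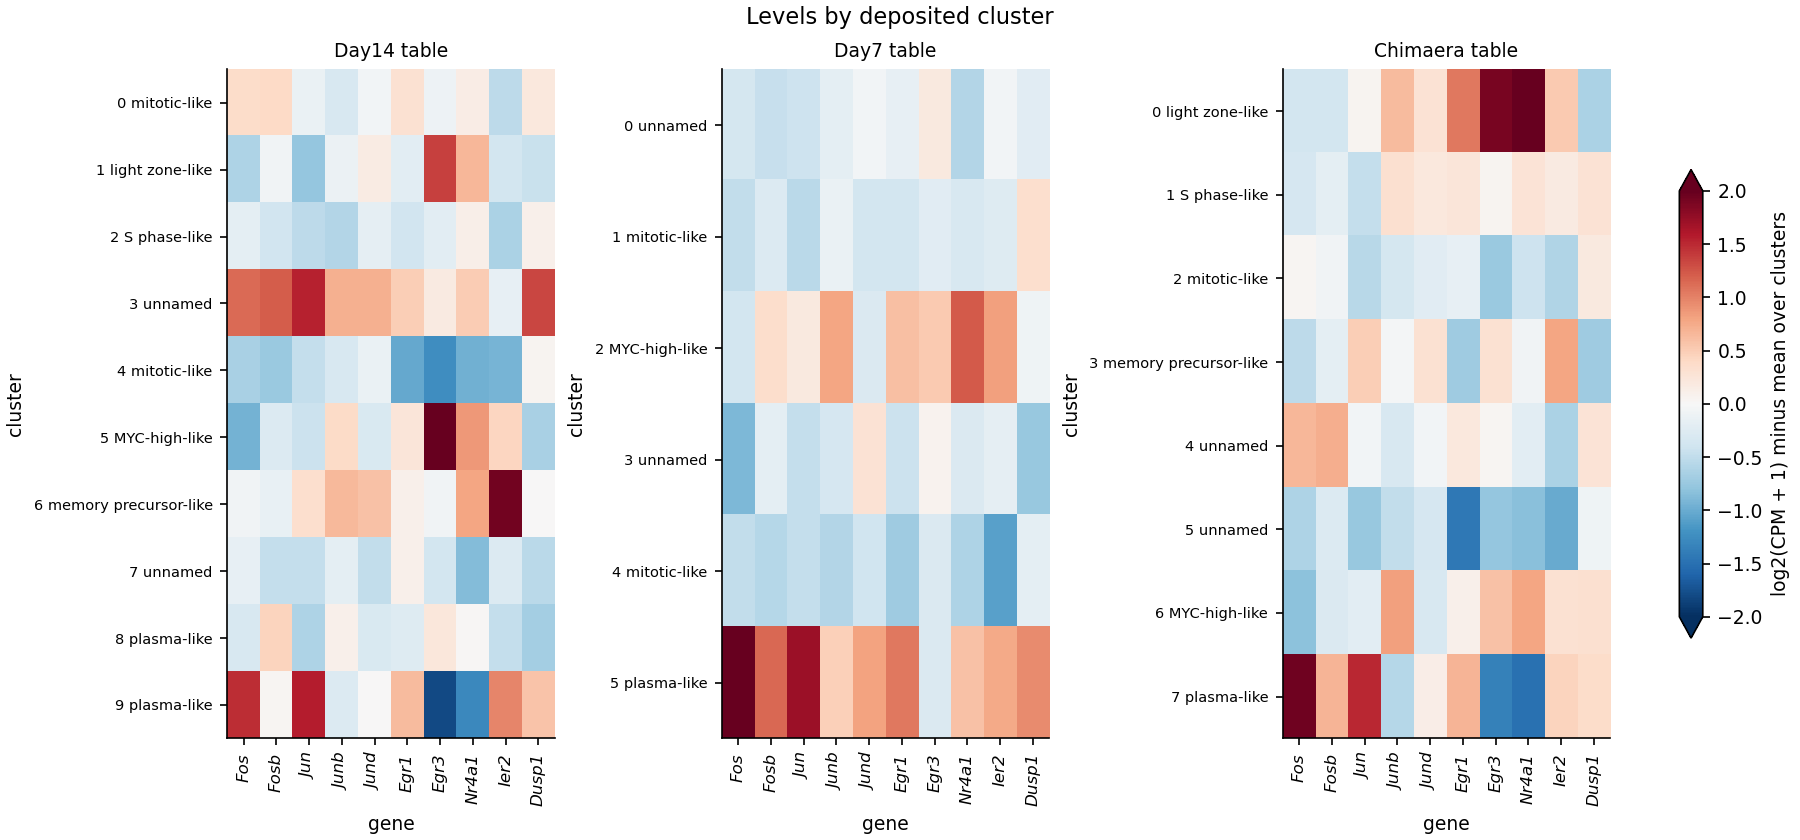
Level of each gene in each cluster of the 3 tables as log2(CPM + 1) minus the gene's mean over the clusters of its table, averaged over the libraries, with the colour scale ending at -2 and 2. Day14 cluster 10, of 26 and 24 cells, is not drawn, and the 321 cells of Day14 cluster 7 all come from the second library. Fos, Fosb, Jun, Junb, Jund and Dusp1 are high in Day14 cluster 3, Egr3 and Nr4a1 in light zone-like and MYC-high-like clusters.

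The likeness of the genes to each other was measured over the sums of cells per cluster and library, 11 points in Day7, 19 in Day14 and 16 in the chimaeras, as Pearson's r within each table averaged over the 3 tables. The points share libraries and depth, so the values are descriptions. Fos and Jun were most alike, with a mean r of 0.82, followed by Junb and Nr4a1 at 0.74, Egr3 and Nr4a1 at 0.69, Junb and Ier2 at 0.65, Fos and Fosb at 0.64 and Fos and Dusp1 at 0.63. The lowest values were -0.39 for Fos with Egr3 and -0.34 for Egr3 with Dusp1. Of 4561 other genes, those most like the mean of the members were Cd69 at 0.75, Irf1 at 0.73, Zgpat at 0.71, Plbd2 at 0.69 and Ascc3 at 0.68. Cd69 is an early activation antigen of lymphocytes and Irf1 an interferon-regulated factor.

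Each member also had its own neighbours. Preb at 0.88 and Dnajb9 at 0.86 were most like Fos, and Dnajb9 at 0.87 and Clic4 at 0.85 most like Jun. Birc3 at 0.79 and Bcl3 at 0.78, both NF-κB targets, were most like Junb, while Nfkbid at 0.77 and Birc3 at 0.74 were most like Nr4a1. Snhg12 at 0.79 and Nfkbid at 0.78 came first for Egr3, and Gimap5 at 0.79 and Gimap7 at 0.74 for Ier2. Egr1 was most like Irf1 at 0.69 and Pacsin1 at 0.66, Jund like Ppp3ca at 0.72 and Smarca2 at 0.71, Fosb like Ascc3 at 0.68 and Man1a2 at 0.66, and Dusp1 like Idh2 at 0.64 and Ccdc117 at 0.63.

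Other genes of the same responses were read from lists that partly overlap. Between light zone and dark zone cells, 19 of 27 other immediate early genes were higher and 3 lower in edgeR's quasi-likelihood test, with a median log2 difference of 0.44 against 0.013 for all genes tested, of which 30.1% were higher and 27.5% lower. Egr2 at 1.69, Nr4a3 at 1.67, Klf2 at 1.62 and Myc at 1.38 changed most among them. Of 12 genes induced through the antigen receptor 12 were higher and 0 lower, with a median of 1.44, led by Bhlhe40 at 2.08, a transcriptional repressor, and with Irf4, a factor of plasma cell fate, at 1.56. Of 22 genes that tissue dissociation is known to induce 10 were higher and 7 lower, with a median of 0.01, the lower count being near the share over all genes, and the metallothioneins Mt2 at 2.48 and Mt1 at 2.18 and the heat shock gene Hspb1 at 1.80 were the largest. Of 19 genes of the ERK and serum response factor pathway 8 were higher and 2 lower, with a median of 0.08 and Dusp4, a phosphatase for ERK, at 1.06.

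Between day 14 and day 7 the lists gave a different picture. Of 29 other immediate early genes 13 were higher and 5 lower, with a median log2 difference of 0.41 against 0.038 for all genes, of which 34.9% were higher and 33.0% lower, and Nr4a2 at 4.44, Nr4a3 at 3.27 and Klf4 at 2.74 rose most. Of 12 antigen receptor induced genes 6 were higher and 5 lower, with a median of 0.10, Nr4a3 being higher and Egr2 at -1.32 and Myc at -1.38 lower. Of 20 dissociation genes 4 were higher and 9 lower, with a median of -0.33. Hspa1b, a heat shock gene, was higher by 2.57 and Ppp1r15a by 1.70, while Mt1 at -2.63 and Socs3 at -1.68 were lower. The summed level of the dissociation genes was 5713 and 5854 CPM in Day14 libraries, 6399 and 7242 CPM in Day7 libraries, 7335 CPM in the KO chimaera and 7078 CPM in the control chimaera. The Day7 sums covered 22 of the 23 listed genes. This sum also differed between clusters of a library, at 8911 and 9034 CPM in the MYC-high-like cluster 5 of the Day14 libraries and 4560 and 4626 CPM in their cluster 3. Whether the sum follows handling was not tested. Across phases, 2 of 26 other immediate early genes were higher and 19 lower in S than in G1, and 9 of 20 dissociation genes were higher and 7 lower, beside 29.1% higher and 34.2% lower over all genes.

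The chimaeras ask whether Il4ra loss in the host's stroma alters these genes in donor B cells, and with 1 library a group no test is possible. A gene was counted as past the size rule with 20 CPM or more in 1 of the libraries, a log2 ratio beyond 0.5 up or down and a counting interval that leaves out 0. By that rule 0 of the 4 members that reached 20 CPM were past it, where 0.886% of all genes rated were higher and 2.49% lower. Jund had a log2 ratio of KO over control of 0.43 (95% interval 0.39 to 0.47), Egr1 of -0.29 (-0.39 to -0.19), Junb of -0.38 (-0.43 to -0.33) and Ier2 of -0.47 (-0.57 to -0.38). The 2 Day14 libraries differed by 0.06 for Jund, 0.02 for Egr1, 0.07 for Junb and 0.20 for Ier2 on the log2 scale. Between the 2 Day7 libraries the same differences were 0.13 for Jund, -0.48 for Egr1, -0.21 for Junb and 0.23 for Ier2. Below the 20 CPM minimum, Egr3 had 104 UMIs in the KO library against 208 in the control library, a log2 ratio of -0.94, and Nr4a1 had 167 against 323 UMIs, a ratio of -0.89. The same pair of Nr4a1 values differed by 1.24 between the 2 Day7 libraries and by -0.23 between the Day14 libraries.

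Within zones the chimaera difference kept its direction for Fos, Jun, Junb, Jund, Egr1, Egr3, Nr4a1 and Ier2. Fosb and Dusp1 changed sign between the zones. The counting intervals of Fos, Egr1 and Egr3 included 0 in dark zone cells. Nr4a1 had 5.52 CPM in KO against 9.98 CPM in control light zone cells, a log2 ratio of -0.85. In dark zone cells it had 1.58 against 2.56 CPM, a ratio of -0.70. Across clusters only Junb, Jund and Nr4a1 kept their direction throughout. Fos stood at 0.82 (interval 0.03 to 1.64) in the unnamed cluster 5 and at -1.02 in the memory precursor-like cluster 3. Egr1 had 0.38 in the plasma-like cluster 7 and Ier2 0.28 in cluster 5, against -0.90 and -0.83 in cluster 3. Egr3 had 1.77 in the unnamed cluster 4 and -2.29 in cluster 3. The intervals of these Egr1, Ier2 and Egr3 rises included 0. In light zone cells alone Jund passed the size rule, at 0.55, and in G1 cells alone Jund passed at 0.51 and Ier2 at -0.52. Ier2 also passed in cells thinned to 1000 UMIs, at -0.66. The share of all genes past the rule is given here for whole libraries only, so passing in these subsets is a description. Of the other lists, 0 of 13 other immediate early genes, 1 of 7 antigen receptor induced genes, 0 of 13 dissociation genes and 0 of 10 ERK pathway genes passed the rule, the 1 being higher in the KO library.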

How the data were processed

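The authors deposited whole-number UMI counts per gene and cell in 3 tables and a table of zone, phase and cluster calls for each; per the submitters' processing notes, Cell Ranger, Seurat and the mm10 genome were used, with versions and call methods not given in the sources used here. Another 1 value column, which repeats cell barcodes, was not used. Raw counts were summed per library, or per library and zone, phase or cluster, as deposited, without further filters on cells. Sums were tested with edgeR 4.0.16 (quasi-likelihood test, TMM, filterByExpr, Benjamini-Hochberg adjustment over all genes tested, threshold 0.05) in R 4.3.3, with library as a term for zone and phase. DESeq2 1.42.0 was an alternative. The same fit was checked on simulated counts. CPM intervals are exact Poisson at 95%, and ratio intervals exact binomial, and both cover counting error only. A gene with a count of 0 could be present at up to 3 counts. No doublets were removed, except in 1 alternative without the 5% highest scores. Thinning to 1000 UMIs left out 336 and 501 Day14 cells, 0 Day7 cells, 14 KO cells and 40 control cells. Clusters were named from listed markers with at least 3 raised and a median log2 of at least 0.5 over the other cells of the table. A cluster stayed unnamed where another list held more of its 10 leading genes, dark zone, mitotic and S phase lists not counting against each other. It also stayed unnamed at low depth with none of its own markers among these genes. All 10 members are named, with up to 4 called genes per other list with the largest change, the 5 genes most like the members and 2 per member. Members and lists were chosen with earlier results of these data known.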

Additional observations from a re-analysis of the deposited data

Results flagged for a closer look

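Within groups of 6 libraries, 1 library stood far from the others for a pair of genes, where chance flags about 1 group in 20. The log2 ratio of light zone over dark zone Fos was 0.81 in the second Day7 library, against -0.28 to 0.12 in the other 5. That of Nr4a1 was 3.27 in the first Day7 library, against 1.27 to 1.96 in the other 5. Its dark zone value rested on 10 UMIs, but was near that of the second Day7 library, at 0.772 and 0.803 CPM. The light zone values of these libraries differed, at 7.44 and 2.35 CPM. In light zone S phase cells they were 21.7 CPM, from 36 UMIs, and 2.92 CPM. The difference between day 14 and day 7 in the light zone over dark zone ratio passed edgeR's interaction test for 4 members, at -0.7 for Fos, -0.7 for Jun, -0.3 for Junb and -0.6 for Egr1 on the log2 scale. It passed for 0 members in cells under 5% mitochondrial counts, where 71 of 10484 tested genes were called higher and 43 lower. The part of cell quality in this difference was not tested.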

How the results depend on the processing

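Day, gate, table, depth and mitochondrial limit cannot be told apart, and Egr3, Fosb and Nr4a1 rest on few counts in Day7. Day 14 over day 7 had 7 or 8 members higher in every alternative that kept both libraries of each group, with Ier2 in and Dusp1 out in cells under 5% mitochondrial counts. Genes called higher over all tested numbered 3011 of 10954 in cells under 5%, 3184 of 10168 in thinned cells and 5115 of 11995 with library totals only. Members called lower numbered 2 without the first Day7 library (range 0 to 2 over libraries left out) and 1 in cells under 5% mitochondrial counts. Of single values, 129 stayed on the same side of the threshold, 11 gained and 1 lost a call, and 9 changed sign: Junb was 0.0257 with library totals only, which moved the median of all genes to 0.23, and 0.13 in thinned cells. Egr1 was 0.18 with library totals only, 0.0122 with no filter, 0.30 in dark zone cells, 0.11 in thinned cells and -0.29 to 0.29 (0.0167 without the second Day14 library) with a library left out. With the replicate block 8 members were higher (Ier2 added) and Egr1 was 0.0136; the numbers pair only 2 libraries a group (r = 0.18 of same-numbered deviations) and no label ties them.

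For light over dark zone 6 to 8 members were higher, 6 in S and in G2M cells. Of all genes tested, 1881 of 10484 were called higher in S cells, 1372 of 10181 in G2M cells and 2127 of 10351 in G1 cells. Members lower numbered 2 without the second Day7 library (range 1 to 2), 0 in G1 cells, 0 in S cells, 0 in G2M cells, and 2 without plasma-like and memory precursor-like clusters. All genes called lower numbered 3378 of 11747, 2010 of 10351, 1986 of 10484, 1596 of 10181 and 3146 of 11391 in the same order. Fos was 0.0014 with library totals only, 0.023 without the second Day14 library (range -0.20 to 0.023), 0.14 in Day7 and chimaera libraries only, 0.18 in G1 cells and 0.20 in cells under 5%. Fosb was -0.0181 in Day7 and chimaera libraries only and -0.17 in G2M cells.

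For S over G1, Fos was 0.0264 without the second Day7 library, 0.009 without the control chimaera (range -0.1078 to 0.0264), 0.0406 in thinned cells and 0.12 in dark zone cells. Members higher numbered 0 in thinned cells and 3 in dark zone cells, where 1900 of 9505 and 2585 of 10711 tested genes were called higher. Members lower numbered 1 with zone as a term, 2 in light zone cells and 1 in dark zone cells. The tested genes called lower there were 3560 of 10679, 2741 of 10315 and 2835 of 10711. With zone as a term Junb was 0.01, Egr1 0.23, Nr4a1 0.26 and Ier2 0.10. Nr4a1 was 0.29 in light zone cells, and in dark zone cells Junb was 0.0025, Egr1 0.71, Egr3 0.42, Nr4a1 0.18 and Ier2 0.44.

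For G2M over G1, Fosb was -0.0562 with library totals only and -0.0327 without the KO chimaera (range -0.0327 to 0.0747). Members higher numbered 2 without the second Day7 library (range 1 to 2), 3 with zone as a term and 6 in dark zone cells, and members lower 1 with zone as a term, 1 in light zone cells and 1 in dark zone cells. The tested genes called higher numbered 3169 of 11172 without the second Day7 library, and the counts of the other fits stand above. With zone as a term Jun was 0.071, Junb 0.46, Egr1 0.48, Egr3 0.20, Nr4a1 0.27 and Ier2 0.22. In light zone cells Fos was -0.25, Fosb -0.37, Jun 0.43, Junb 0.83, Egr1 0.31, Egr3 0.12, Nr4a1 0.19 and Ier2 0.41. In dark zone cells Jun was 0.0736, Junb 0.19, Egr1 0.83, Egr3 0.60, Nr4a1 0.25 and Ier2 0.34.

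For day by zone, members lower numbered 3 with size factors (Fos lost), 1 in G1 cells, 1 in thinned cells and 0 in cells under 5%. Fosb was 0.58, 0.25 and 0.45 in the last 3 of these, Ier2 was -0.18 in G1 cells, and in cells under 5% Junb was 0.0377, Jund 0.0604 and Egr1 0.19. The tested genes called lower were 106 of 11478 with size factors, 178 of 10279 in G1 cells, 40 of 9564 in thinned cells and 43 of 10484 in cells under 5%. For KO over control, members higher numbered 1 in light zone cells and 1 in G1 cells, and members lower 1 in thinned cells, 1 in G1 cells and 1 at a minimum of 5 CPM, which was Nr4a1. No share over all genes is given here for these KO over control alternatives, so their counts are descriptions. Leaving out Day14 cluster 3, restricting to cells under 5%, leaving out the Day14 libraries and the phase fits within a zone were chosen after seeing the data. The cause of these changes was not tested.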
